A study of Mus musculus with 4 samples.

Results

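The cathepsins described here are 10 protease genes of the mouse, Ctsa, Ctsb, Ctsc, Ctsd, Ctse, Ctsh, Ctsk, Ctsl, Ctss and Ctsz. They were chosen by name, and all 10 were found among the 18825 genes of the deposited count table. Their transcripts were followed across the 14 deposited cell clusters, numbered 0 to 13. Live CD45+ leukocytes from the atherosclerotic aorta of Apoe-/- mice, kept for 13 weeks on western diet, were profiled by droplet 3′ RNA sequencing. The submitters had kept only the clusters with macrophage or dendritic marker genes, so all 3002 cells were selected as myeloid. Loss of apolipoprotein E raises plasma cholesterol and makes mice prone to arterial plaque. The series text counts 6 mice, every sample carried the same genotype and diet, and no untreated or wild-type group was analysed here. The 4 libraries came as 2 biological replicates, the first holding libraries 1-1 and 1-2 and the second holding libraries 2-1 and 2-2. The sources used here do not say which mice went into which replicate, and comparisons below are between cell clusters within these animals and not between treatments.

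Cathepsins are made as inactive precursors, reach the lysosome mostly through mannose 6-phosphate receptors, and are activated there by acid and by other proteases. They digest proteins taken up by phagocytes, trim the invariant chain that guards MHC class II molecules in antigen-presenting cells, and can degrade elastin and collagen when released into the arterial wall. Ctsb, Ctsc, Ctsh, Ctsk, Ctsl, Ctss and Ctsz encode cysteine proteases, Ctsd and Ctse aspartic proteases, and Ctsa a serine carboxypeptidase that also protects lysosomal neuraminidase and beta-galactosidase.

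Many lysosomal genes carry a short palindrome bound by the transcription factor TFEB and its relatives near their start sites. The letters CACGTG were searched on both strands in the 250 bases before each RefSeq start (build GRCm38.p6), together with the longer form TCACGTGA, which contains the first. RefSeq promoters matched 7 of the 10 genes, and Ctsb, Ctse and Ctsh had none. The shorter form occurs in 6.02% and the longer in 0.785% of all 32851 promoters of that length. By gene, the shares are 6.86% and 0.907% of 27025 genes. Among the matched genes Ctsd, Ctsa and Ctsl held the shorter form. The promoter at the first listed start of Ctsa had no match. The windows around each match are printed because these letters are what sets the 3 genes apart from the other 4. Each runs 5′ to 3′ on the gene's strand with CACGTG in capitals.
Ctsd, 98 bases before the start, chr7:142387908-142387937, minus strand: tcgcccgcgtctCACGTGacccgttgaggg
Ctsd, 245 bases before the start, chr7:142388055-142388077, minus strand: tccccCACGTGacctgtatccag
Ctsa, 12 bases before its second listed start, chr2:164833749-164833772, plus strand: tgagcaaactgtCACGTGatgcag
Ctsl, 236 bases before the start, chr13:64370739-64370768, minus strand: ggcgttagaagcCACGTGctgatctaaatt
The nearer Ctsd match and the Ctsa match have the longer form. In the GENCODE annotation of GRCm38 the Ctsa window, the nearer Ctsd window and the Ctsl window lie inside the annotated gene, and the farther Ctsd window lies just upstream of it. No match in the windows of Ctsc, Ctsk, Ctss and Ctsz says only that these letters are not there. Ctsk and Ctss are neighbours on chromosome 3 (95499256 to 95509362 and 95526786 to 95556403, both on the plus strand), yet their patterns over clusters differed, as described below.

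The libraries held 236 to 1231 cells and 1698585 to 5954716 unique molecular identifiers (UMIs, each counting 1 captured transcript), 3002 cells and 15893384 UMIs in all, and no cell barcode occurred in more than 1 library. Clusters were checked against marker lists, of which the macrophage and dendritic genes are those the submitters used to select cells. Levels are CPM, a gene's share of a cluster's UMIs scaled to 1000000. The 4 macrophage genes summed to 11760 to 22559 CPM in clusters 0, 1, 2, 3, 8 and 13 and to 1009 to 3023 CPM in clusters 4, 11 and 12, while the 3 dendritic genes summed to 6.94 to 77.4 CPM in the former and 207 to 258 CPM in the latter. Cluster 0 was resident-like (12 of 12 markers at 2 times or more the average level elsewhere), cluster 2 carried inflammatory and resident genes (9 of 12 each), cluster 8 was foamy-like (12 of 12) and cluster 13 cavity-like (6 of 10). Cluster 1 had macrophage genes without a subtype list. Cluster 4 was cDC2-like (6 of 8), cluster 11 cDC1-like (8 of 8), cluster 12 mature dendritic-like (8 of 8), cluster 5 monocyte-like (9 of 12) and cluster 7 neutrophil-like (8 of 8). Cluster 6 carried proliferation genes, cluster 9 all 6 fibroblast genes despite the CD45 sort, and cluster 10 was left unnamed. Clusters 3, 8 and 10 were shallow, with medians of 834, 980 and 805 UMIs per cell, and only 15.7%, 13.3% and 59.7% of their cells held a UMI of the nuclear transcript Malat1, against at least 90.9% in each other cluster. Cluster 3 had 9 of 12 resident markers, but haemoglobin genes led it, with 3400 of 3433 haemoglobin UMIs from 1 cell, so it is called by its number.

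Over all cells Ctsb gave most cathepsin transcripts, with 31653 UMIs in 90.1% of cells, followed by Ctss with 26435 UMIs in 89.1% of cells. Ctsc (17707 UMIs), Ctsz (15366), Ctsh (13245) and Ctsd (12515) formed a middle group, and Ctsl (6880) and Ctsa (4959) were less frequent. Ctsk was rare, with 189 UMIs in 2.93% of cells. Ctse was close to absent, with 18 UMIs in 16 of 3002 cells. Because 3′ tags count transcripts and not their length, these numbers can be set beside each other without a length correction.

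Together the 10 genes gave 2.81% ± 0.366 (SD, n = 2 biological replicates) of all UMIs in foamy-like cluster 8, more than in any other cluster. In libraries 1-1, 1-2, 2-1 and 2-2 the share in cluster 8 was 2.78, 3.15, 2.73 and 2.28%. Every one of these 4 values lay above every library value of the other 13 clusters, the highest of which was 1.15% in cluster 1. Cluster 1 came next with 1.07% ± 0.0603, then monocyte-like cluster 5 with 0.988% ± 0.0398 and cluster 0 with 0.885% ± 0.0806. The dendritic clusters were at the low end, with 0.553% ± 0.0681 in cluster 4, 0.412% ± 0.0111 in cluster 12 and 0.304% ± 0.00524 in cluster 11. Among the other shallow clusters with few Malat1 UMIs the share was 0.772% ± 0.0476 in cluster 3 and 0.722% ± 0.290 in cluster 10. The part of depth and of Malat1 loss in the share was not tested. Within cluster 8 the 14 cells with a Malat1 UMI had a share of 2.61% and the 91 cells without one had 2.79%. These cells were pooled over replicates, so no spread is given. Ctsl had 2799 CPM in cells with and 5728 CPM in cells without a Malat1 UMI, and Ctsh 840 and 1151. Ctsa (728 and 299) and Ctsc (280 and 154) went the other way. The 14 cells held only 17864 UMIs of all genes, against 110338 in the 91 cells, so their Ctsa, Ctsc and Ctsh levels rest on few UMIs. Ctsb (7837 and 7078), Ctsd (5430 and 5393) and Ctss (5206 and 5320) had like levels in both. The part of Malat1 in these levels was not tested.

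**Figure D1:**
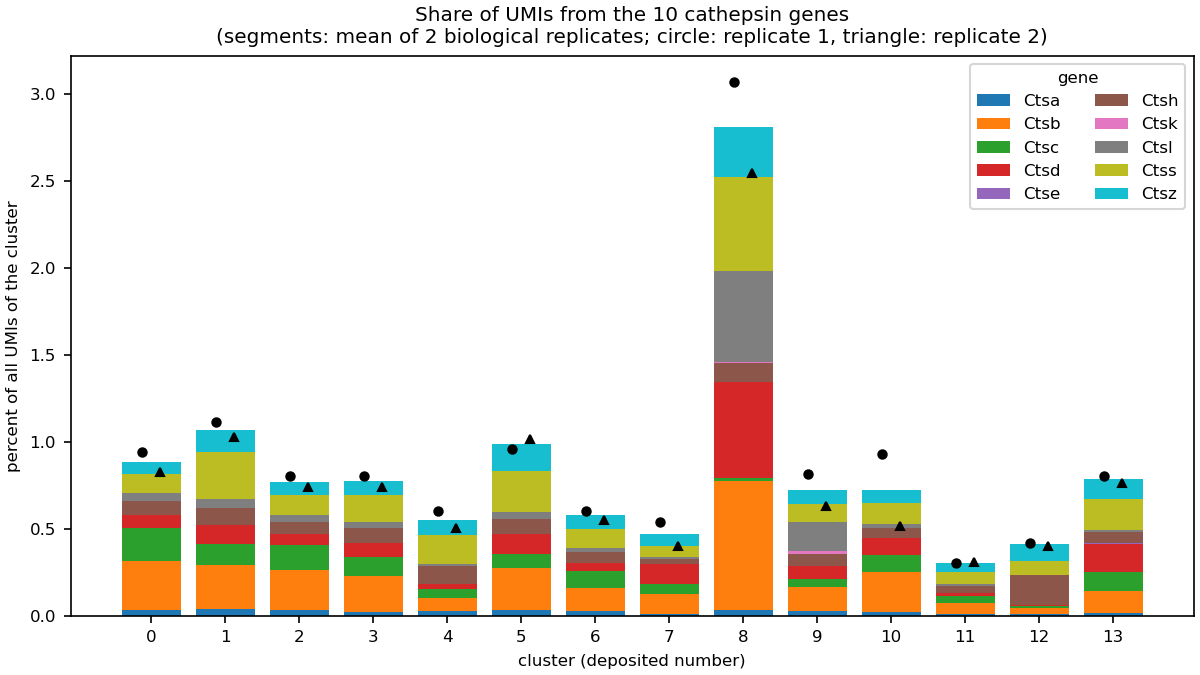
Percent of all UMIs of each deposited cluster (x axis, 0 to 13) that came from the 10 cathepsin genes (y axis); coloured segments are the mean of 2 biological replicates for each gene, the circle is replicate 1 and the triangle replicate 2. Cluster 8 reaches 2.81%, and the next, cluster 1, reaches 1.07%.

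The make-up of the cathepsin pool also differed between clusters. Ctsc gave 21.2% of cathepsin UMIs in resident-like cluster 0 and 0.62% in cluster 8. Ctsh gave 40.7% in mature dendritic-like cluster 12, where Ctsl gave 0.839%. Ctsl gave 19.0% in cluster 8 and 23.0% in fibroblast-marker cluster 9. As ratios of CPM, Ctss over Ctsl was 22.3 ± 3.25 in cluster 12, 17.5 ± 2.77 in cavity-like cluster 13 and 13.2 ± 3.51 in cluster 4, against 1.06 ± 0.355 in cluster 8 and 0.639 ± 0.0767 in cluster 9. The cluster 12 ratio rests on 8 Ctsl UMIs, and the Ctsl level of cluster 13 fell to 0.473 times its value without library 2-2. Ctsb over Ctsc was 43.6 ± 13.6 in cluster 8 and lay between 1.14 and 3.06 in the other 13 clusters.

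**Figure D2:**
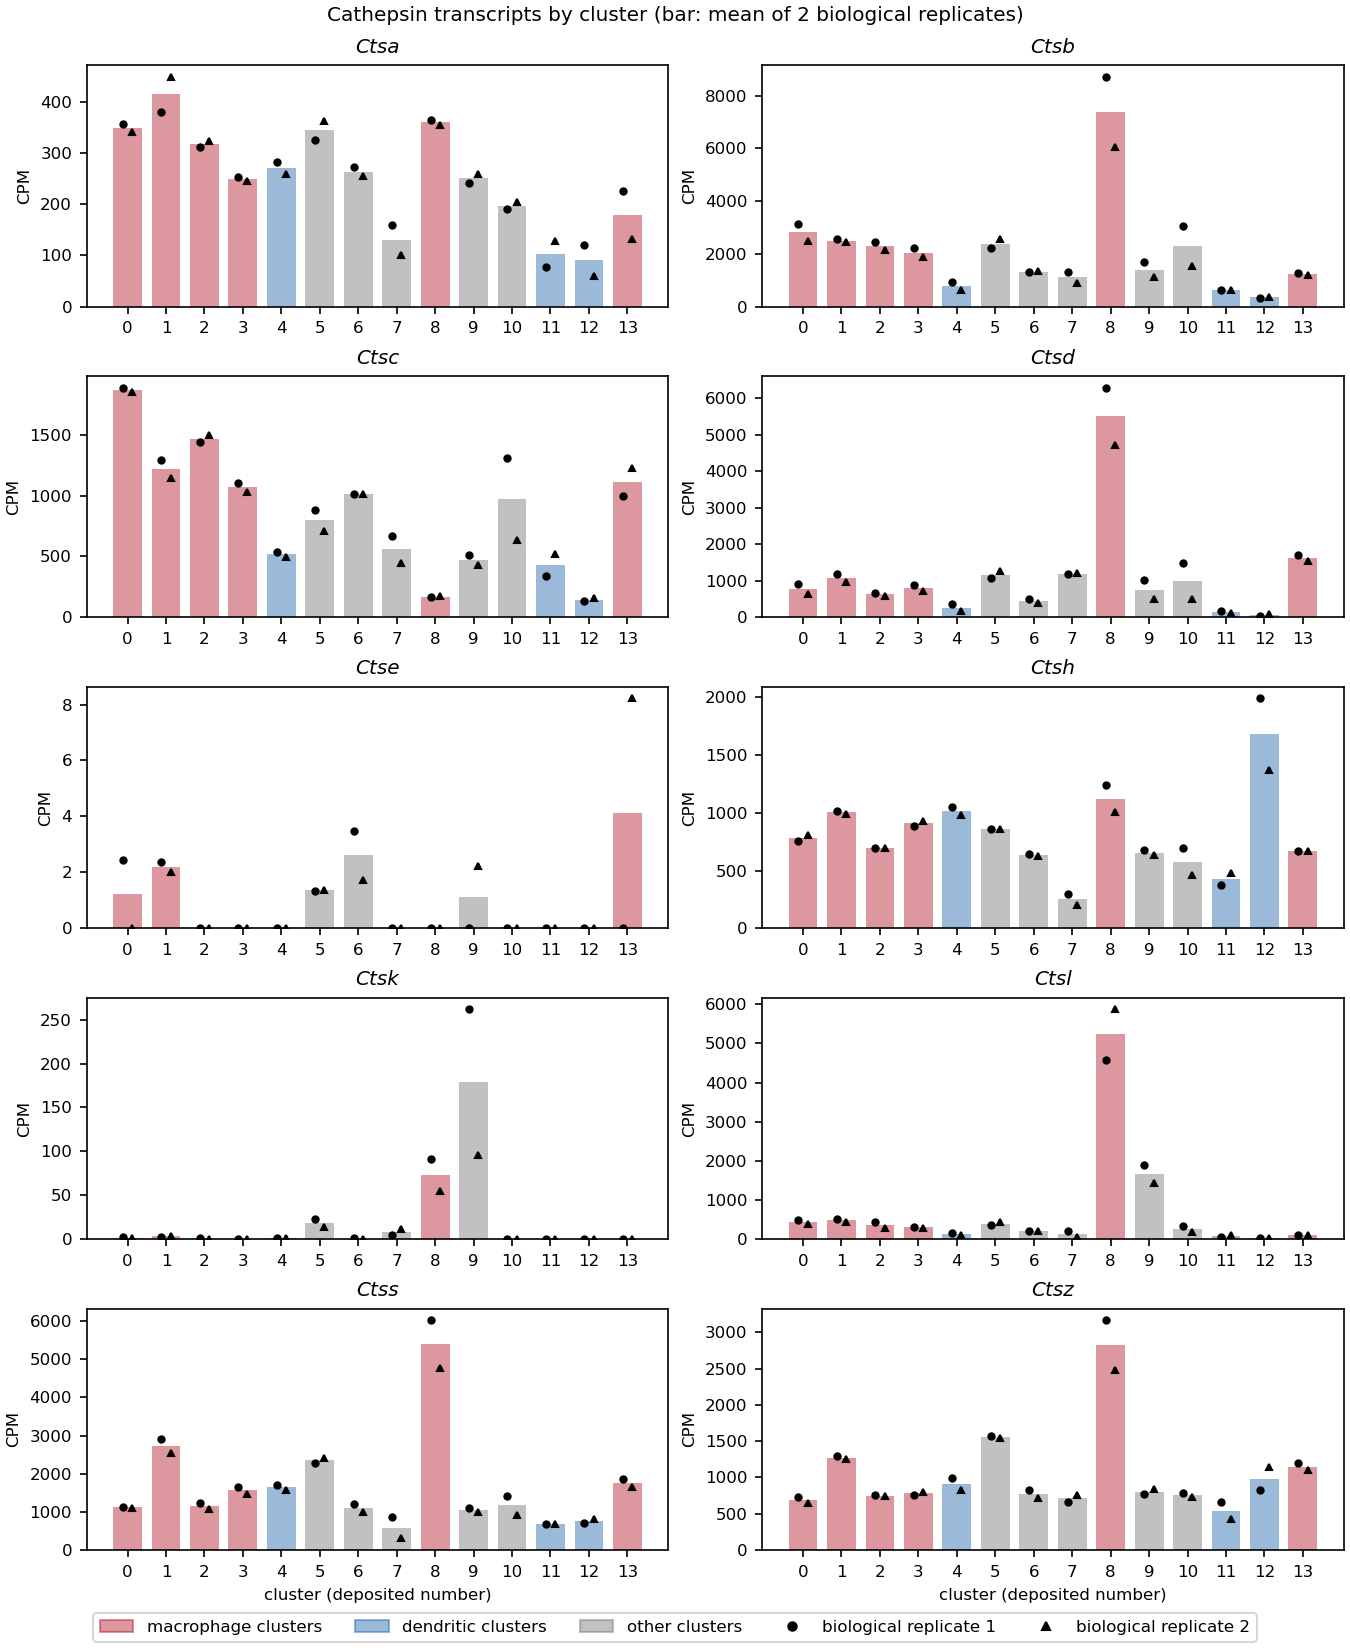
CPM of each cathepsin gene (y axis, 1 panel per gene with its own linear scale from 0) in each deposited cluster (x axis); bars are the mean of 2 biological replicates, circles replicate 1 and triangles replicate 2, red marks macrophage, blue dendritic and grey other clusters. Ctsb, Ctsd, Ctsl, Ctss and Ctsz peak in cluster 8, Ctsc in cluster 0, Ctsh in cluster 12, Ctsa in cluster 1 and Ctsk in cluster 9.

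Among the endopeptidases, Ctsl, whose product is a broad lysosomal protease that also processes the invariant chain in thymic epithelium, had a steep range. Its level in cluster 8 was 5985, 4194, 6461 and 5020 CPM in libraries 1-1, 1-2, 2-1 and 2-2. In cluster 9 it was 1583, 1991, 1716 and 1247 CPM. All 4 libraries of cluster 8 were above all 4 of cluster 9, and both clusters were above every library of the rest, where the highest value was 537 CPM. Cluster means ran from 480 ± 44.4 CPM in cluster 1 and 439 ± 79.5 in cluster 0, which overlapped, down to 34.6 ± 1.95 in cluster 12.

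Ctsb encodes the most abundant lysosomal cysteine protease, active both as an endopeptidase and as a peptidyl-dipeptidase. It reached 6899, 9228, 6253 and 5718 CPM in the 4 libraries of cluster 8, and every other cluster stayed below these values in all libraries. Clusters 0, 1, 5, 2, 10 and 3 followed with means from 2825 ± 453 to 2046 ± 226 CPM, each overlapping its neighbour in rank between replicates. Without library 1-2 cluster 10 was at 1305 CPM. Cluster 12 was lowest at 357 ± 30.4 CPM.

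Ctss, the protease that removes the last part of the invariant chain in macrophages and dendritic cells and that stays active at neutral pH, reached 4738, 6385, 4840 and 4655 CPM in cluster 8. Cluster 1 followed with 2728, 2965, 2613 and 2507 CPM and cluster 5 with 1834, 2498, 2432 and 2373 CPM. The libraries of these 3 clusters did not overlap, although the lowest of cluster 1 and the highest of cluster 5 nearly met. Clusters 13, 4 and 3 came next (1762 ± 144, 1645 ± 93.3 and 1570 ± 127 CPM) and overlapped. Cluster 0, with the largest number of cells, had 1120 ± 24.4 CPM.

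Ctsk, best known for degrading bone collagen in osteoclasts, was highest outside the macrophage and dendritic clusters. Fibroblast-marker cluster 9 had 452, 206, 89.2 and 99.8 CPM in the 4 libraries, from 130 UMIs in 44 of 93 cells. Its mean was 179 ± 118 CPM, and leaving out library 1-2 raised it 1.53 times. Cluster 8 followed with 0, 117, 23.2 and 99.7 CPM from 9 UMIs in 8 of 105 cells, and the level of Ctsk in cluster 8 was 27.3 CPM without library 1-2. The library values of clusters 9 and 8 overlapped, and their biological replicates nearly met at 95.3 and 91.0 CPM. Monocyte-like cluster 5 had 17.3, 25.1, 6.14 and 20.2 CPM from 27 UMIs in 15 of 209 cells. The other clusters had at most 11 UMIs each, and clusters 3, 10, 11, 12 and 13 had 0. The 6 fibroblast genes summed to 24846 CPM in cluster 9, to 441 in cluster 8 and to 472 in cluster 3. The part of fibroblast RNA in the Ctsk counts was not tested. The 9 Ctsk UMIs of cluster 8 were all in cells without a Malat1 UMI. Those cells also held 110338 of the cluster's 128202 UMIs of all genes, so 9 UMIs are too few to set Ctsk apart.

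The aspartic protease Ctsd, a main endopeptidase of the lysosome, had 5901, 6408, 5419 and 3724 CPM in cluster 8. The lowest of these was above the highest value of any other cluster, 2720 CPM in library 1-1 of cavity-like cluster 13. Cluster 13 ranked second with 1621 ± 108 CPM and did not overlap between replicates with neutrophil-like cluster 7 at 1200 ± 26.9 CPM. Clusters 7, 5 and 1 overlapped. Cluster 12 had 57.9 ± 30.9 CPM from 15 UMIs. Its relative Ctse, known from gut, skin and antigen-presenting cells, had 1 to 7 UMIs in each of clusters 0, 1, 5, 6, 9 and 13. No Ctse UMI was found in the 3 dendritic clusters, and for the 276 cells of cluster 4 this allows at most 1.33% of cells with a UMI (exact Clopper-Pearson limit at 95% confidence, counting error only).

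Ctsc, the dipeptidyl peptidase that activates the granule proteases of neutrophils and killer cells, was low in the cluster where 5 other members peaked. It was highest in cluster 0, with 2026, 1852, 1787 and 1916 CPM, then in cluster 2 with 1467 ± 37.9 CPM, and the replicates of these clusters did not overlap. Cluster 8 had 83.1, 186, 185 and 166 CPM from 22 UMIs. Only cluster 12 was lower, at 146 ± 19.5 CPM. All libraries of cluster 8 lay below all libraries of cluster 3 (790 to 1223 CPM).

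Ctsh, an aminopeptidase, was highest in mature dendritic-like cluster 12, with 2095, 1938, 1334 and 1382 CPM. Cluster 8 (1124 ± 161 CPM), cluster 4 (1017 ± 51.0) and cluster 1 (1004 ± 15.7) followed and overlapped. The highest library of cluster 8, at 1375 CPM, reached the lower libraries of cluster 12, so the 2 clusters were apart between biological replicates but not in every library. Neutrophil-like cluster 7 was lowest at 250 ± 68.1 CPM.

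Ctsz, a carboxypeptidase that can also bind integrins, had 2909, 3239, 2640 and 2261 CPM in cluster 8 and 1539, 1577, 1468 and 1602 CPM in cluster 5. The libraries of these clusters did not overlap, and those of cluster 1 (1274 ± 21.0 CPM) lay below cluster 5. The other clusters had between 541 and 1149 CPM, and each overlapped its neighbour in rank. The lowest, cluster 11, was at 324 CPM without library 1-2. Ctsa, the serine carboxypeptidase, was highest in cluster 1 with 360, 386, 415 and 474 CPM. Cluster 8 had 499, 326, 440 and 233 CPM, so it lay below cluster 1 between biological replicates but overlapped it between libraries. The means of clusters 8, 0 and 5 (359 ± 6.42, 349 ± 10.7 and 344 ± 26.6 CPM) overlapped. The lowest mean was 89.9 ± 42.5 CPM in cluster 12, from 19 UMIs.

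The share of cells with at least 1 UMI was compared after every cell had been thinned to 500 UMIs, since the median depth of the clusters ran from 805 to 9680 UMIs. In cluster 8 thinned cells held Ctsl in 67.6% (57.8 to 76.4%, exact Clopper-Pearson interval at 95% confidence, counting error only), against 72.4% before thinning. Cluster 3 had 12.6% (9.21 to 16.7%), against 23.4% before. Cluster 9 had 61.3% (50.6 to 71.2%) and 94.6%. Ctsl transcripts in cluster 8 were therefore spread over most cells, with 6.16% of them from the cell that held the most.

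Ctsc was found in 12.4% (6.76 to 20.2%) of thinned cells of cluster 8 and in 36.9% (31.7 to 42.4%) of cluster 3, against 17.1% and 52.0% before thinning. For Ctsh the share in cluster 12 was 54.5% (38.8 to 69.6%) and in cluster 11 17.0% (7.65 to 30.8%), while before thinning both were near saturation at 90.9% and 89.4%. The thinned Ctsh intervals of cluster 4 (36.6%, 30.9 to 42.6%) and cluster 8 (42.9%, 33.2 to 52.9%) overlapped that of cluster 12. For Ctsk, 9.68% (4.52 to 17.6%) of thinned cells in cluster 9 and 3.81% (1.05 to 9.47%) in cluster 8 held a UMI. These intervals overlap. As a background for the share of cells, Ctsk was seen before thinning in 0.787% of cluster 0 cells (median 4404 UMIs) and in 1.84% of cluster 1 cells (median 5115 UMIs), clusters that were deeper than cluster 8.

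**Figure D3:**
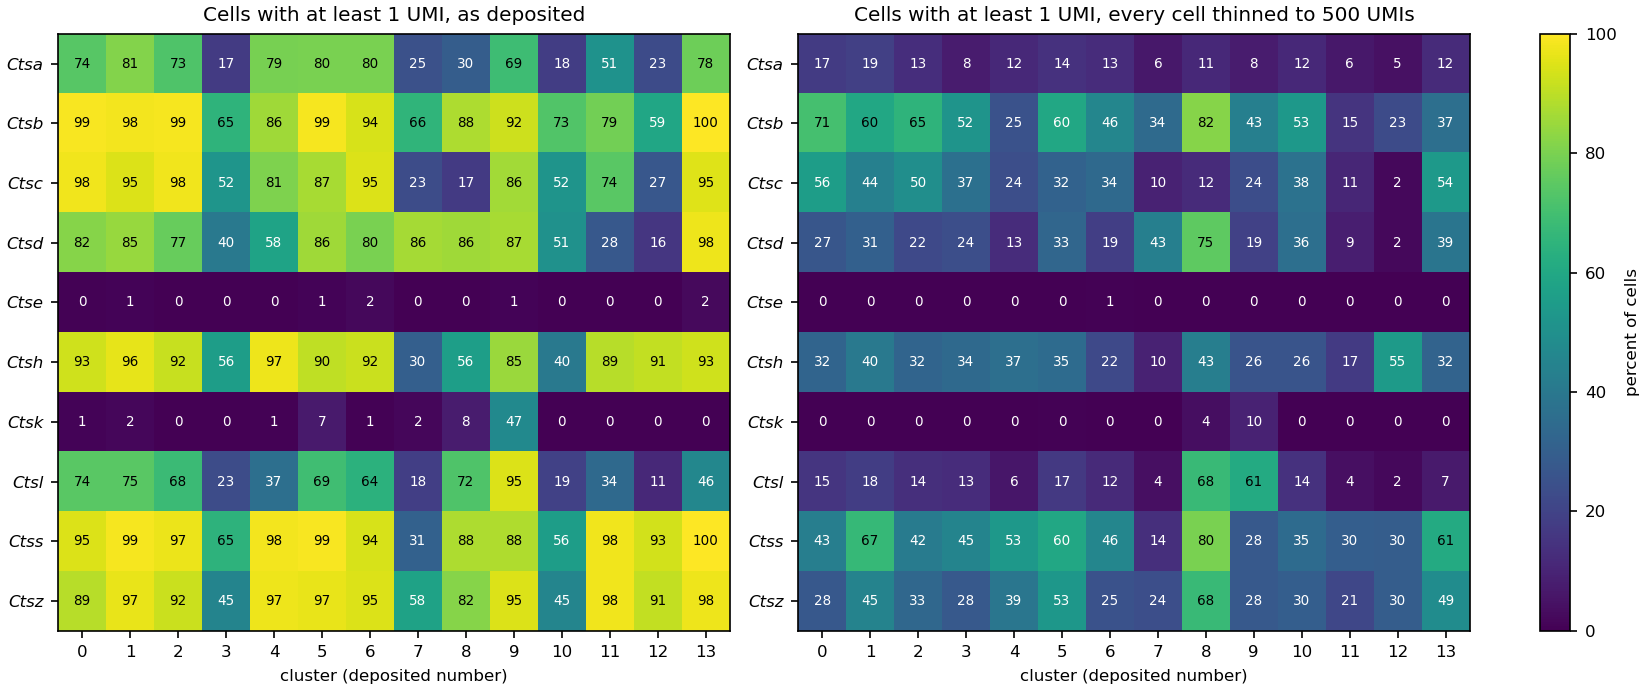
Percent of cells with at least 1 UMI of each cathepsin gene (rows) in each deposited cluster (columns), as deposited on the left and with every cell thinned to 500 UMIs on the right; the colour and the rounded number in each field give the percent. Ctsl stands at 68% in cluster 8 and 61% in cluster 9 after thinning, and Ctsh at 55% in cluster 12.

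Differences between clusters were tested on counts summed per cluster and biological replicate with edgeR's quasi-likelihood test and Benjamini-Hochberg adjustment over all genes tested. A gene was called at an adjusted p under 0.05. The clusters had been drawn from the same counts, and the libraries of a replicate may share animals, so the p-values are too small and describe these clusters. Ctse passed the filter on low counts in none of the comparisons, and the other 9 genes did in each.

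Macrophage clusters (0, 1, 2, 3, 8 and 13) were compared with dendritic clusters (4, 11 and 12), each class as the mean of its clusters. Of the 9 tested cathepsins 7 were higher in macrophages and 0 lower, where 14.5% of all 5090 genes tested were called higher and 23.6% lower. At an unadjusted p under 0.05 in edgeR, and in DESeq2, the count of lower members was 0 as well. The median log2 fold change of the 8 members other than Ctsk was 1.37 and that of all genes -0.14. Ctsd differed most (log2 fold change 3.19 ± 0.13 SE, adjusted p = 1.30e-17 in edgeR), followed by Ctsl (2.72 ± 0.17) and Ctsb (2.22 ± 0.10). Fold changes average the clusters of a class on the log scale, so they are not the ratio of the class means in CPM. For Ctsl those means were 1153 ± 114 against 82.5 ± 4.26 CPM, and 348 ± 55.7 CPM in macrophages without clusters 3 and 8. Ctsc (1.55 ± 0.11), Ctsa (1.20 ± 0.14) and Ctss (1.02 ± 0.08) were higher by less, and Ctsz by least (0.47 ± 0.10, adjusted p = 0.000406 in edgeR). Every replicate of the macrophage mean was above every replicate of the dendritic mean for these 7 genes. Ctsh had class means of 864 ± 19.2 CPM in macrophage and 1042 ± 138 CPM in dendritic clusters. Its fitted log2 fold change of -0.07 ± 0.08 did not pass (adjusted p = 0.575 in edgeR). Ctsk had 26 UMIs in the macrophage and 3 in the dendritic clusters, passed the filter only through cluster 8 and was not called.

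The class means hide large differences inside each class. Ctsl ranged from 101 to 5228 CPM among macrophage clusters and from 34.6 to 130 among dendritic ones, and the replicates of cavity-like cluster 13 (101 ± 7.84 CPM) overlapped those of cluster 4 (130 ± 41.4 CPM). Ctss in clusters 0 and 2 (1120 and 1160 CPM) lay below dendritic cluster 4 (1645 CPM). So did Ctsa in cluster 13 (178 against 270 CPM). Ctsz in clusters 0, 2 and 3 (687 to 781 CPM) lay below clusters 4 and 12 (912 and 985 CPM). Ctsc in cluster 8 (171 CPM) was below clusters 4 and 11 (519 and 431 CPM). Only Ctsb (1244 against 767 CPM) and Ctsd (630 against 270 CPM) had the lowest macrophage mean above the highest dendritic one. Without the shallow clusters 3 and 8 the same 6 genes other than Ctsz were called, Ctsl at a log2 fold change of 1.98 and Ctss at 0.71. Ctsz was then at 0.22 (adjusted p = 0.0888 in edgeR) and was not called, and Ctsk was not tested.

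**Figure D4:**
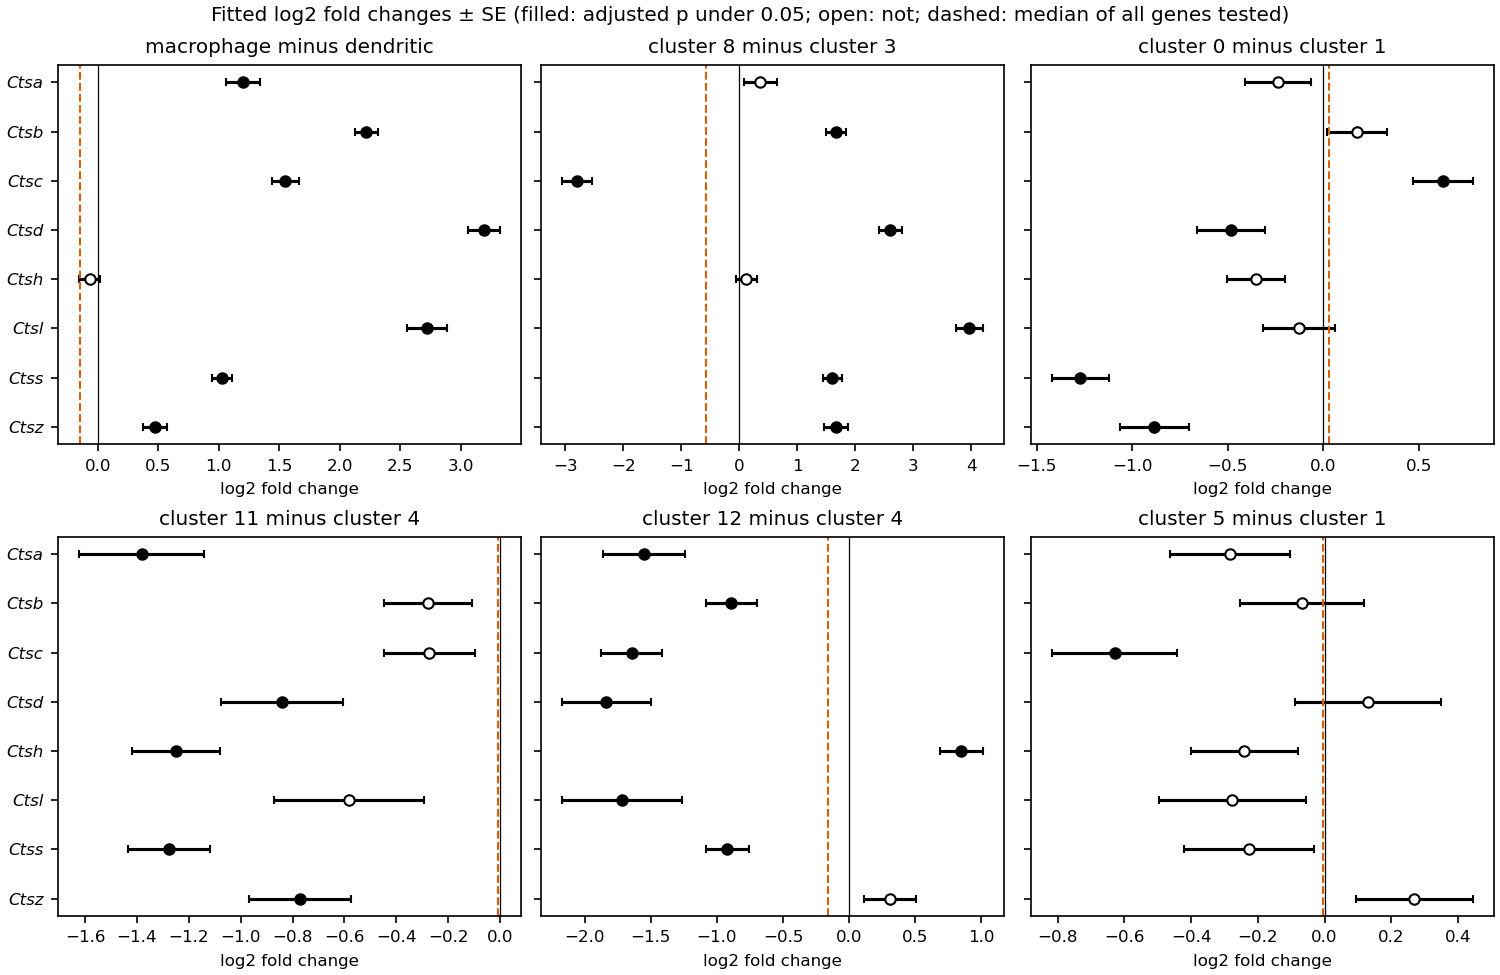
Fitted log2 fold change (x axis) with its SE for 8 cathepsin genes (rows) in 6 comparisons (panels, each with its own x scale); filled points have an adjusted p under 0.05 in edgeR, open points do not, and the dashed line is the median of all genes tested. In the first panel 7 of the 8 points are filled and lie right of 0; in the panel of cluster 8 minus cluster 3, Ctsl lies at 3.97 and Ctsc at -2.80. Ctsk, with 0 UMIs in several clusters, and Ctse are not drawn.

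Foamy-like cluster 8 was compared with cluster 3, the other macrophage cluster that was shallow and poor in Malat1, so that depth per cell was alike. Their summed counts were not, with 128202 UMIs in cluster 8 and 335004 in cluster 3. Of the 9 tested genes 6 were called higher and 1 lower in cluster 8, where 2.71% of genes were called higher and 7.90% lower. The median of the 8 members other than Ctsk was 1.64 and that of all genes -0.58. Ctsl led (3.97 ± 0.24, adjusted p = 6.76e-13 in edgeR), then Ctsd (2.61 ± 0.20), Ctsb (1.67 ± 0.17), Ctsz (1.67 ± 0.21) and Ctss (1.61 ± 0.16). Ctsk, with 9 against 0 UMIs, was the other of the 6. It passed the filter on low counts only through cluster 8, where it was high, and did not pass it without library 1-2 or without library 2-2, so its call carries no weight. Ctsc was lower (-2.80 ± 0.26, adjusted p = 2.35e-09 in edgeR). Ctsa (0.37 ± 0.29) and Ctsh (0.13 ± 0.19) were not called. On simulated counts this comparison recovered 9.3% of true 2-fold and 52.2% of true 4-fold changes. These shares cover genes of all count levels, and recovery of Ctsa and Ctsh alone was not simulated. A gene not called here may still differ.

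The scaling shifted all genes of this pair alike. With relative log expression factors in place of TMM the median of all genes moved from -0.58 to -0.26 and that of the 8 cathepsins from 1.64 to 1.94. The calls over all genes went from 138 higher and 402 lower to 204 and 196, and each member had its former direction and call. Cluster 8 held all 12 foamy markers at a summed 48686 CPM against 3241 CPM in cluster 3, and its resident markers summed to 1333 CPM against 13906, so the cathepsins moved with these lists. Their part in the result was not tested.

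The macrophage clusters with most cells, resident-like cluster 0 and cluster 1, were compared next. In cluster 0, 1 member was higher and 3 were lower than in cluster 1, where 16.6% of genes were called higher and 13.3% lower. Ctsc was higher (0.63 ± 0.16, adjusted p = 0.00235 in edgeR). Ctss (-1.27 ± 0.15, adjusted p = 6.47e-08), Ctsz (-0.89 ± 0.18, adjusted p = 0.000310) and Ctsd (-0.48 ± 0.18, adjusted p = 0.0413) were lower. Ctsb stood at 0.18, Ctsl at -0.13, Ctsa at -0.24 and Ctsh at -0.35, none of them called. In edgeR Ctsh was called lower with the 4 libraries as samples (-0.42, adjusted p = 0.0411). It was also called lower without the 5% of cells with most UMIs (-0.41, adjusted p = 0.0242). The Ctss difference held in each alternative. Without library 1-2 the calls of Ctsc (0.65, adjusted p = 0.319), Ctsz (-0.84, adjusted p = 0.159) and Ctsd (-0.57, adjusted p = 0.420) were lost in edgeR, while the fold changes hardly moved. Without library 2-2 Ctsc (0.51, adjusted p = 0.115) and Ctsd (-0.47, adjusted p = 0.171) were lost, and without library 1-1 Ctsd (-0.47, adjusted p = 0.0791). The Ctsd call also went without the replicate block (adjusted p = 0.150), and it was lost in 7 of 11 alternatives in all.

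Monocyte-like cluster 5 was compared with the same cluster 1, so the 2 comparisons share its cells. Of 9 tested genes 1 was higher and 1 lower in cluster 5, where 7.36% of 6657 genes were called higher and 6.71% lower. Ctsk was higher (2.32 ± 0.56, adjusted p = 0.00330 in edgeR), from 27 UMIs against 11. Ctsc was lower (-0.63 ± 0.19, adjusted p = 0.0180). The other 7, among them Ctsb (-0.07), Ctss (-0.23) and Ctsz (0.27), were not called. Neither call held without library 1-2, with Ctsk at 2.10 (adjusted p = 0.141) and Ctsc at -0.81 (adjusted p = 0.326) in edgeR, and Ctsc was also lost without library 2-2 (-0.69, adjusted p = 0.342). In DESeq2 the count of lower members was 2.

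Among dendritic cells, cDC1-like cluster 11 and mature dendritic-like cluster 12 were each compared with cDC2-like cluster 4, whose cells both comparisons share. In cluster 11, 0 members were higher and 5 were lower than in cluster 4, where 5.36% of genes were called higher and 7.62% lower. At an unadjusted p under 0.05 in edgeR, and in DESeq2, 0 members were higher too. Ctsa (-1.38 ± 0.24), Ctss (-1.28 ± 0.16) and Ctsh (-1.25 ± 0.17, adjusted p = 4.12e-06 in edgeR) were lower, and Ctsd (-0.84 ± 0.24) and Ctsz (-0.77 ± 0.20) by less. Ctsb, Ctsc and Ctsl, at -0.28, -0.27 and -0.58, were not called. Without the 5% of cells with most UMIs all 3 were called lower, Ctsb at -0.72 (adjusted p = 0.0282), Ctsc at -1.06 (adjusted p = 0.000440) and Ctsl at -1.47 (adjusted p = 0.0336) in edgeR. Ctss held without each library. Without library 1-2 Ctsa (-1.29, adjusted p = 0.124), Ctsh (-1.18, adjusted p = 0.122) and Ctsd (-0.73, adjusted p = 0.641) were not called, and Ctsz stood at -1.55. Without library 2-2 Ctsd (-0.78, adjusted p = 0.134) and Ctsz (-0.68, adjusted p = 0.0960) were not called, and without the replicate block Ctsd was at an adjusted p of 0.0587. Without library 2-1 Ctsl was called lower (-1.08, adjusted p = 0.0175). Cluster 11 had 47 cells.

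In cluster 12, 1 member was higher and 6 were lower than in cluster 4, where 12.6% of genes were called higher and 13.1% lower. Ctsh was higher (0.85 ± 0.16, adjusted p = 0.000206 in edgeR). Ctsd (-1.84 ± 0.33), Ctsl (-1.72 ± 0.45), Ctsc (-1.65 ± 0.23) and Ctsa (-1.55 ± 0.31) were lower by most, then Ctss (-0.92 ± 0.17) and Ctsb (-0.89 ± 0.20). Ctsz (0.31 ± 0.20) was not called. Cluster 12 had 44 cells, and its lower members rest on few UMIs, 8 of Ctsl, 15 of Ctsd, 19 of Ctsa and 35 of Ctsc. Of the 35 Ctsc UMIs, 42.9% came from 1 cell. Without library 1-2 Ctsh (0.78, adjusted p = 0.157), Ctsd (-1.26, adjusted p = 0.142), Ctsl (-1.60, adjusted p = 0.100), Ctsb (-0.89, adjusted p = 0.203) and Ctss (-1.02, adjusted p = 0.0676) lost their calls in edgeR, and Ctsa stood at -2.17. Without library 2-2 Ctsb was at -1.50, Ctsc at -2.28 and Ctsl at -2.43. With cells thinned to 500 UMIs the Ctsh difference was 0.35 (adjusted p = 0.513), and the calls of Ctsa (adjusted p = 0.210), Ctsb (0.256), Ctsd (0.146) and Ctsl (0.231) were lost as well. Without the 5% of cells with most UMIs Ctsb was at -0.62 (adjusted p = 0.0580).

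Genes that act on cathepsins were followed as fixed lists. Of 13 listed inhibitors 6 were tested between macrophage and dendritic clusters, and 2 were higher and 4 lower in macrophages, where 14.5% of all genes were called higher and 23.6% lower. Serpinb6a, which encodes a serine protease inhibitor of the cytosol, was higher (3.12 ± 0.20, adjusted p = 1.79e-13 in edgeR) and reached 849 ± 171 CPM in cluster 8. Serpinb6b, Serpinb9 and Serpinb1a were called lower and had 0 UMIs in some clusters. Serpinb1a had 0 UMIs in clusters 3 and 8 and 0.97 to 9.80 CPM in clusters 0, 1 and 2. In macrophage cluster 13 it had 44.9 ± 6.22 CPM. Dendritic clusters 4, 11 and 12 had 26.8 ± 3.89, 54.2 ± 76.7 and 26.6 ± 37.6 CPM of Serpinb1a, so its call does not hold cluster by cluster. Serpinb6b had 638 ± 376 CPM in cluster 12 and at most 39.0 CPM elsewhere, and Serpinb9, an inhibitor of granzyme B, had 260 ± 45.6 CPM there and at most 37.3 CPM elsewhere. Among the macrophage and dendritic clusters both passed the filter only through cluster 12, where they were high, so their calls carry no weight.

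The cystatins Cstb and Cst3 completed that list, and they are detailed after their values were seen. Cystatin B, an inhibitor of the cytosol, was higher in macrophages (Cstb 1.12 ± 0.12), and cystatin C, the main secreted inhibitor of cysteine cathepsins, was lower (Cst3 -1.21 ± 0.10, adjusted p = 3.48e-11 in edgeR). In cluster 8 Cstb had 1961 ± 32.1 CPM against 230 ± 65.6 in cluster 3 (2.97 ± 0.22), and Cst3 had 2493 ± 592 against 8428 ± 675 CPM (-1.93 ± 0.22). The cluster with the highest cathepsin share had the highest Cstb and the lowest Cst3 mean of all 14 clusters, although its Cst3 replicates overlapped those of clusters 5, 13 and 7 (2707 ± 202, 2724 ± 436 and 2843 ± 61.3 CPM). Cst3 was highest in cluster 11, at 50294, 19857, 12953 and 18756 CPM in the 4 libraries, of which library 1-1 held 3 cells. The mean was 19165 ± 2969 CPM, and 33680 CPM without library 1-2. Cluster 11 was the cluster where the cathepsin share was lowest, and Cst3 was higher there than in cluster 4 (2.14 ± 0.21), as it was in cluster 12 (1.75 ± 0.21). Other clusters broke this order. Cluster 7 had Cstb at 966 ± 279 CPM and low Cst3, yet a cathepsin share of only 0.470%. Cst3 was high in cluster 9 (10113 ± 1335 CPM) and cluster 3, at middling shares of 0.725% and 0.772%. Cstb was also higher in cluster 5 than in cluster 1 (1.12 ± 0.19), at 905 ± 95.9 against 411 ± 72.0 CPM.

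Of 8 genes for sorting and activation 3 were tested between the classes, and 2 were higher and 1 lower in macrophages, beside 14.5% and 23.6% of all genes. Lgmn, which encodes legumain, a protease that processes several cathepsins to their 2-chain forms, was higher (1.33 ± 0.12). It had 910 to 1158 CPM in clusters 0, 1, 2, 3, 5 and 8 but 360 ± 129 CPM in macrophage cluster 13. M6pr, a mannose 6-phosphate receptor, was lower (-0.74 ± 0.17). Psap, which encodes prosaposin, the precursor of lysosomal activator proteins, was higher by 0.31 ± 0.11 (adjusted p = 0.0305 in edgeR), a call lost without library 1-1, where the adjusted p was 0.0506 at 0.30. It was also lost when library 1-2 was left out (0.37, adjusted p = 0.197), and without clusters 3 and 8 (0.19, adjusted p = 0.206). Psap was higher in cluster 8 than in cluster 3 (2.07 ± 0.24).

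Of 4 transcription factor genes of the TFEB family, Tfe3 (0.23 ± 0.40) and Mitf were tested between the classes. In edgeR 0 were called, and 0 had an unadjusted p under 0.05. Mitf had 0 UMIs in cluster 8 and stood at 0.62 ± 10.9, so its test could not decide. Its means were 60.4, 38.8, 56.6 and 41.4 CPM in macrophage clusters 0, 1, 2 and 13, and 8.78 CPM in cluster 3. In dendritic clusters 4, 11 and 12 they were 12.3, 8.86 and 9.32 CPM. Of the family DESeq2 called 1 gene higher, and without clusters 3 and 8 edgeR called 2. Between clusters 0 and 1, Mitf was higher in cluster 0 (0.65 ± 0.19, adjusted p = 0.0115 in edgeR). Tfeb itself had at most 29.2 CPM in any cluster. It did not pass the filter on low counts between the classes, and for cluster 5 against cluster 1 it stood at 0.03 ± 0.31 and was not called. Of 6 partners and substrates 3 were tested, 1 higher and 1 lower in macrophages, where 14.5% and 23.6% of all genes were called higher and lower. Neu1, the neuraminidase that Ctsa protects, was higher (1.65 ± 0.32), and Cd74, which encodes the invariant chain, was lower (-0.94 ± 0.10). Cd74 was also lower in cluster 8 (3017 ± 1757 CPM) than in cluster 3 (9543 ± 146 CPM), at -1.86 ± 0.23, the opposite direction to Ctss and Ctsl. Of 4 other cathepsin genes only Ctsf was tested. It was called higher in macrophages, with 66.4 ± 10.6 CPM in cluster 0, 68.9 ± 5.42 in cluster 2 and 0 UMIs in cluster 12. Ctsf passed the filter on low counts through macrophage clusters, where it was high, so its call carries no weight.

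The likeness of each pattern to those of other genes was described by Pearson's r of log2 CPM over the 28 sums of cluster and replicate, which share libraries and differ in depth. Cd68 (r = 0.91) and Trem2 (r = 0.91) were among the 3 genes most like Ctsb out of 6656, and Plin2 (r = 0.89), the coat protein of lipid droplets, was most like Ctsd. Ctsc was most like Fcgr2b (r = 0.93) and Dab2 (r = 0.92). Ctss was most like Mmp12 (r = 0.84), Ctsz like Cyba (r = 0.87), Ctsl like Gng11 (r = 0.87), Ctsa like Tnfsf12 (r = 0.83), Ctsk like Htra1 (r = 0.84) and Ctsh like Spr (r = 0.78). Within the list the most alike were Ctsb and Ctsd (r = 0.87), Ctsb and Ctsl (r = 0.84), and Ctss and Ctsz (r = 0.82), while Ctsc had no r above 0.44 with another member. The neighbours Ctsk and Ctss had an r of 0.33.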

How the data were processed

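Expression was measured by 3′ droplet sequencing of 4 libraries. Per the submitters' processing notes the authors used Cell Ranger 3.0.2, Seurat 3.1.1 and the mm10 build. The deposited matrix holds raw UMI counts. Per the file headers a second deposited table holds natural log values, which matched the counts scaled to 10000 per cell and were used only for that check. The authors deposited the percent of mitochondrial counts and the cluster of each cell. The 10 members and the gene lists were chosen with earlier results of these data known. Counts were summed per cluster and biological replicate. edgeR 4.0.16 (filterByExpr, TMM, quasi-likelihood, replicate as a block because clusters of a replicate come from the same animals) was fitted to 18 sums of macrophage and dendritic clusters, and to all 28 sums for cluster 5 against cluster 1. DESeq2 1.42.0 was an alternative. The fits were tested on simulated data with known changes. Of 2-fold changes 88.1% were recovered between the classes, 9.3% for cluster 8 against 3 and 58.4% for cluster 5 against 1. Of 4-fold changes 100%, 52.2% and 96.7% were recovered. No doublet caller was run, and leaving out the 5% of cells with most UMIs was an alternative. Library totals are 1698585 to 5954716 UMIs. Genes named were the members, up to 4 called members of each list, and the 3 most alike genes, of which some are given. Cstb, Cst3 and Tfeb were added after their values were seen.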

Additional observations from a re-analysis of the deposited data

Results flagged for a closer look

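Of 114 groups of 4 libraries with enough counts, 8 had 1 library apart from the other 3 by more than Dixon's 95% critical value. Chance gives about 1 in 20. The cathepsin share in cluster 5 was 0.797% in library 1-1 against 1.01 to 1.03% in the others, and there Ctsl had 173.4 CPM against 420.8 to 460.6. Also in cluster 5, Ctsc had 973.1 CPM in library 1-2 against 684.9 to 718.6. In cluster 6, library 1-1 had 376.1 CPM of Ctsa against 242.1 to 264.0 and 639.4 CPM of Ctsb against 1315 to 1376. The share in unnamed cluster 10 was 0.982% in library 1-2 against 0.497 to 0.572%. Ctss in cluster 8 was 6385 CPM in library 1-2 against 4655 to 4840, and Ctsz in cluster 13 was 977.7 CPM in library 2-1 against 1169 to 1199. Library 1-1 had 19 cells in cluster 5 and 7 in cluster 6, and library 2-1 had 3 in cluster 13.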

How the results depend on the processing

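The members called between macrophage and dendritic clusters and between clusters 8 and 3 changed by at most 1 under any alternative. With each library left out in turn, the counts were 0 to 1 higher and 1 to 3 lower for cluster 0 against 1, 2 to 6 lower for cluster 11 against 4, 0 to 1 higher and 2 to 6 lower for cluster 12 against 4, and 0 to 1 higher and 0 to 1 lower for cluster 5 against 1. In the same way 1 to 2 sorting genes and 1 to 2 partners were called higher between the classes. With cells thinned to 500 UMIs, 3 members were lower in cluster 11, 0 higher and 2 lower in cluster 12, and 0 higher and 0 lower in cluster 5. Of the lists between the classes, thinning then left 1 inhibitor higher and 1 lower, 0 sorting genes lower, 0 partners higher and 0 other cathepsins higher. Without the 5% of cells with most UMIs 8 members were lower in cluster 11. For cluster 5, 0 members were lower with the 4 libraries as samples and 2 in DESeq2. Transcription factors called higher were 1 in DESeq2 and 2 without clusters 3 and 8. Partners called higher were 2 with relative log expression factors, 2 without clusters 3 and 8 and 2 without the replicate block.

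No replicate block was used in 1 alternative: of 50 member fold changes it ended the calls of Ctsd in cluster 0 against 1 and in cluster 11 against 4, and changed no other member's call. Fold changes that turned sign were not called in either setting. With thinned cells these were Ctsb (0.00985) and Ctsd (-0.0283) in cluster 5 against 1, Ctsz in cluster 12 against 4 (-0.767) and Ctsh between the classes (0.345). Without a filter on low counts Ctsh in cluster 8 against 3 was -0.0323. With each library left out, Ctsd in cluster 5 against 1 ran from -0.108 to 0.305, Ctsh in cluster 8 against 3 from -0.0167 to 0.226, and Ctsz in cluster 12 against 4 from -0.130 to 0.448. The cause was not tested. All genes called lower in cluster 8 against 3 were 402, but 196 with relative log expression factors and 139 in DESeq2. Of 110 levels with at least 20 UMIs, 10 moved by over 1.5 times without library 1-2, 3 without library 2-2 and 0 without either other library. Depth limits clusters 11, 12 and 13, with 3 to 24 cells per library, and Ctsk and Ctse everywhere.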

Other observations

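Genes of the family outside the list were sparse. Ctsw, known from killer cells, had 40 UMIs in cluster 6, which also held T cell transcripts, and at most 4 in any other cluster. The stefin gene Stfa2l1 had 21 UMIs, all in neutrophil-like cluster 7. Cst7, a cystatin gene, had 84 UMIs in cDC2-like cluster 4 (37.5 CPM) and at most 21 in any other cluster. Ctso had 6.99 to 48.9 CPM, the highest in cluster 9. Ctsg, a neutrophil granule protease, had 1 UMI in all.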
